A study of Rattus norvegicus with 4 samples.

Results

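Grem1, Gpc3 and Fmod encode proteins outside or at the surface of the cell that modulate secreted growth factors. They were picked by symbol as 3 of the 9653 genes with a named probe on the array, and each has 1 probe. Grem1 and Gpc3 had drawn attention because both DHA arrays placed them at least 1.5-fold below control. Fmod had a low joint value over EPA and DHA. These values chose the genes, so the ratios below are descriptions and carry no test.

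Gremlin 1, the product of Grem1, is a secreted cystine-knot protein of the DAN family that binds bone morphogenetic proteins (BMPs), chiefly BMP2, BMP4 and BMP7, and keeps them from their receptors. BMPs act through serine/threonine kinase receptors and SMAD proteins, which induce the Id genes and the inhibitory SMADs. Glypican 3, the product of Gpc3, is a heparan sulfate proteoglycan anchored in the cell membrane by a lipid. It modulates Wnt, Hedgehog and BMP signalling, and in humans its loss causes the Simpson-Golabi-Behmel overgrowth syndrome. Fibromodulin, the product of Fmod, is a small leucine-rich proteoglycan of the matrix that binds fibrillar collagen and transforming growth factor beta (TGF-beta). Matrix proteins of this kind are typically made by fibroblasts and other mesenchymal cells.

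Ventricular cells of newborn Wistar rats were grown in HAM F10 medium to which horse and fetal calf serum were added at 10% each. The supplemented cultures had 60 µM eicosapentaenoic acid (EPA) or 60 µM docosahexaenoic acid (DHA) in that medium, and the control cultures had neither acid. A medium change time of 48 h was recorded for all 4 arrays, and the length of the exposure is not given here. EPA and DHA are omega-3 fatty acids, DHA having the longer chain and 1 more double bond. Each of the 4 arrays compared a supplemented culture with a control, 2 arrays per acid with the dyes exchanged. On array 1 of each acid the supplemented RNA was in Cy5, and on array 2 it was in Cy3. The number of animals, any pooling and whether the arrays of a swap share RNA extracts are not stated in the labels, so each acid counts as 1 RNA sample with no replicate check. The ratios compare channels and give no level of a gene, so the labelled cardiomyocytes could not be checked by the abundance of their markers.

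Values are log ratios with each array's median set to 0, made by the authors with scanner settings that the labels do not state. They are read as log2, which is not stated. They are also read as fatty acid over control, which is likely from the sample titles and the series' wording but not stated. A table of control over fatty acid would turn every direction given here. A table of Cy5 over Cy3 would turn the sign of both arrays 2. The correlation across probes within a swap, Pearson's r = -0.11 for EPA and -0.03 for DHA, settles neither. Between the acids, r was 0.06 for arrays 1 and 0.65 for arrays 2, so arrays 2 resembled each other more than the arrays of either acid did. A swap mean is given with ± the distance of its arrays from that mean. This error holds labelling and array differences, and differences between cultures too if the arrays of a swap carry separate extracts.

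The sequences around the annotated starts of the 3 genes are shown because Grem1 and Gpc3 lay below control together with DHA. The arrays do not measure where transcription starts in these cells. They are 300-base windows of RefSeq on the GRCr8 assembly, from 250 bases before the start to 50 after it, on the gene's own strand. All 3 genes were found in that table. The window of Grem1 is chr3:120978270-120978569 on the minus strand, that of Gpc3 is chrX:137157549-137157848 on the minus strand, and that of Fmod is chr13:48045317-48045616 on the plus strand. Capitals mark matches to CAGAC (SMAD box), GGCGCC (GC-rich SMAD element), CCAAT and GGGCGG (GC box) on either strand.

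Grem1: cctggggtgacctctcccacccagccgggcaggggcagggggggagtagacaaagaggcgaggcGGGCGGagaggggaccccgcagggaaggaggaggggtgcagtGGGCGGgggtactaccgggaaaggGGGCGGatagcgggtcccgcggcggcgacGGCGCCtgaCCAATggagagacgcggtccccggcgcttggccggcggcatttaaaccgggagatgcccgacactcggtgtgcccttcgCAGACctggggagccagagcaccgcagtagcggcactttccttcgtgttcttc
Gpc3: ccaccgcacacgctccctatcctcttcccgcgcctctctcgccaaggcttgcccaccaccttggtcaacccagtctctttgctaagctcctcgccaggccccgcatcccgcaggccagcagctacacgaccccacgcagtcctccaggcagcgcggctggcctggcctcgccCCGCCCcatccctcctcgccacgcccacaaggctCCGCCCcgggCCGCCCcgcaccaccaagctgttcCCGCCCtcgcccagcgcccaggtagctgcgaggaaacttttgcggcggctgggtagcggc
Fmod: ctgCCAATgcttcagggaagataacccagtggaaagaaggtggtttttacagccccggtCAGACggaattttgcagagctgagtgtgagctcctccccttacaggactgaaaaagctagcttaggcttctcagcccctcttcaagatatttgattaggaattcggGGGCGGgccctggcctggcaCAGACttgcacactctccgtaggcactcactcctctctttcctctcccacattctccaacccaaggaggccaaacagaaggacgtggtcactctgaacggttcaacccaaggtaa

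The windows of Grem1 and Gpc3 were rich in G and C, at 70.0% and 71.0%, against 52.7% for Fmod and a median of 52.3% over 27457 windows of this length. The CG dinucleotide occurred 28 times in Grem1, 27 times in Gpc3 and 7 times in Fmod, against a median of 7. GGGCGG was found 3 times in Grem1, 4 times in Gpc3 and once in Fmod, and 34.9% of all windows hold it. CAGAC was found 3 bases before the start in Grem1 and at 2 places in Fmod, and 50.0% of all windows hold it. GGCGCC was found in Grem1 alone of the 3, 91 bases before the start, and 11.8% of all windows hold it. CCAAT was present once in Grem1 and once in Fmod, against 37.7% of all windows. Neither TATAAA, held by 14.3% of all windows, nor the PPAR element of 2 AGGTCA copies with 1 free base between them, held by 0.0583%, was found in any of the 3. The matches in Grem1 do not overlap one another, and the same holds for Gpc3 and for Fmod.

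**Figure D1:**
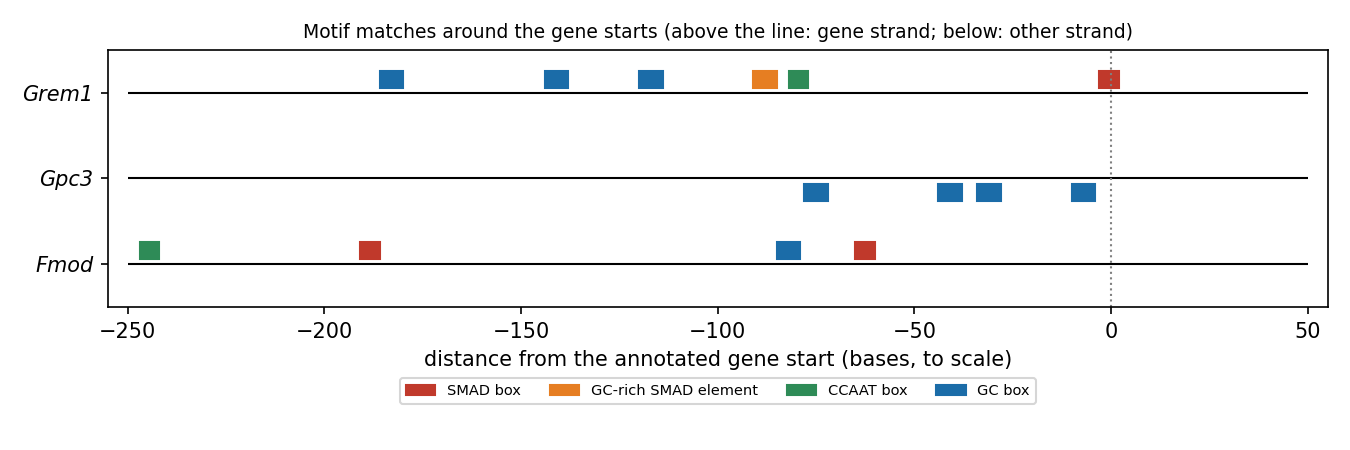
Motif matches in the windows of Grem1, Gpc3 and Fmod, plotted by distance from the annotated start in bases, with the gene's own strand above each line and the other strand below. The GC boxes of Gpc3 all lie on the other strand, and the 1 GC-rich SMAD element lies in Grem1.

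Grem1, the BMP antagonist, stood at -0.30 and -0.66 on EPA arrays 1 and 2. On DHA arrays 1 and 2 it stood at -0.66 and -0.71. All 4 arrays placed it below control, and EPA array 1 was the mildest. The swap means were -0.48 ± 0.18 with EPA, or 0.718 of control, and -0.69 ± 0.03 with DHA, or 0.621 of control. EPA array 2 and DHA array 1 were almost equal.

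Gpc3, the glypican, stood at 0.62 and -0.33 on EPA arrays 1 and 2. On DHA arrays 1 and 2 it stood at -0.59 and -0.79. The EPA arrays thus lay on opposite sides of control, while both DHA arrays lay below it. The swap means were 0.14 ± 0.47 with EPA, whose error is larger than the mean, and -0.69 ± 0.10 with DHA, or 0.619 of control.

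Fmod, the collagen-binding proteoglycan, stood at -0.56 and -0.37 on EPA arrays 1 and 2. On DHA arrays 1 and 2 it stood at -0.75 and -0.30. All 4 arrays placed it below control, array 1 of either acid lower than array 2, and the EPA values lay inside the DHA range. The swap means were -0.46 ± 0.10 with EPA, or 0.724 of control, and -0.53 ± 0.22 with DHA, or 0.694 of control.

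A gene was counted as called when both arrays of a swap passed 1.5-fold, 0.58 on the log2 scale, on the same side of control. With DHA, 2 of the 3 genes, Grem1 and Gpc3, were called lower, where the rule called 0.0414% of all 9653 genes lower. Since that comparison chose them, nothing is read from this count. With EPA, 0 of the 3 were called in either direction, against 0.0311% of all genes higher and 0% lower. Fmod was called with neither acid. Under the Cy5 over Cy3 reading the DHA means of Grem1 and Gpc3 would be 0.026 and 0.10, and neither gene would be called. Read as log10, Grem1 and Fmod would be called lower with both acids and Gpc3 with DHA, where 2.57% of all genes would be called lower with EPA and 3.55% with DHA. Under equal spread of the arrays, Gpc3 with DHA was not called, at a mean of -0.75, and quantile normalization ended both DHA calls. At 1.3-fold, 0.38 on the log2 scale, the count was again 2 lower with DHA, against 0.238% of all genes, and 0 with EPA, against 0.0829%. Of the genes called lower with DHA, Gpc3 was nearest the threshold, at -0.59 on its weaker array. Nr4a3, a nuclear receptor of the immediate early response, was the nearest gene outside, at -0.51 on its weaker array, with its probe in the leftmost grid columns described below. The nearest gene with no probe there was Dpep1, a membrane dipeptidase, at -0.49. If the cultures held several cell types, which was not checked, bulk RNA cannot tell fewer cells of one type from less RNA per cell.

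**Figure D2:**
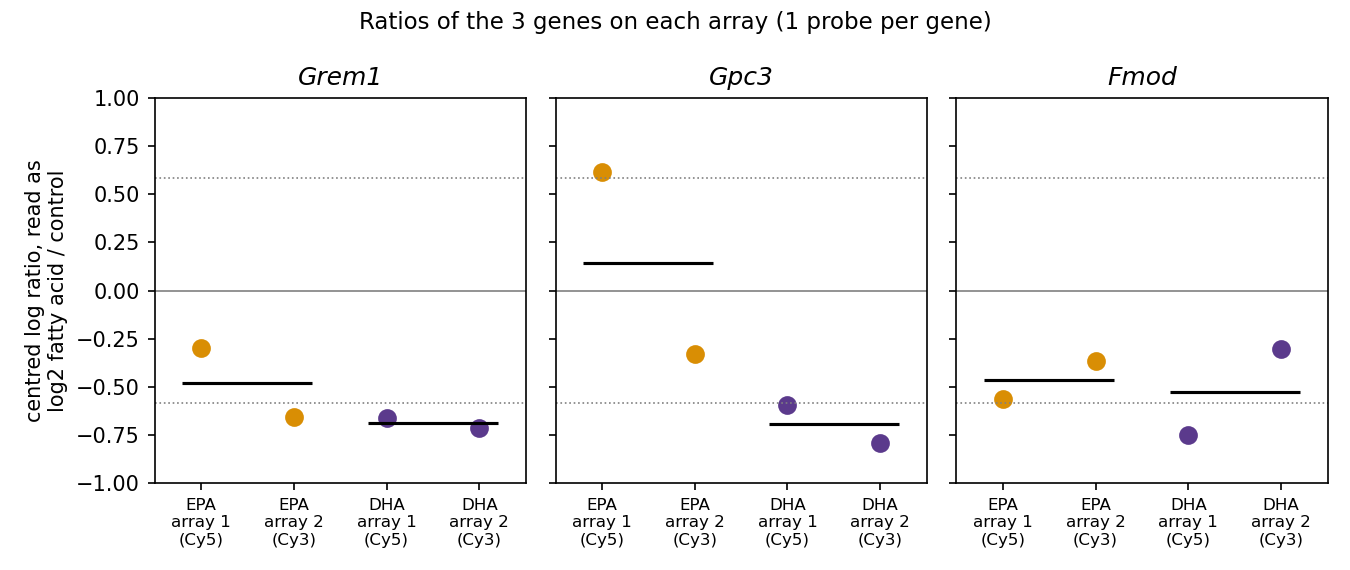
Centred log ratio of Grem1, Gpc3 and Fmod on each array, read as log2 of fatty acid over control, with EPA in orange and DHA in purple. Black bars are swap means, dotted lines mark 1.5-fold, and Gpc3 on EPA array 1 is the 1 point above 0.

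EPA and DHA were given at the same 60 µM, so their ratios can be set side by side within a dye orientation. For Gpc3 the EPA minus DHA difference was 1.21 on arrays 1 and 0.46 on arrays 2, a mean of 0.84 ± 0.38. EPA stood above DHA in both orientations, most on arrays 1. For Grem1 it was 0.36 on arrays 1 and 0.05 on arrays 2, a mean of 0.21 ± 0.15. For Fmod it was 0.19 on arrays 1 and -0.06 on arrays 2, a mean of 0.06 ± 0.13, so its sign turned with the orientation. With 1 RNA sample per acid these differences have no replicate check. Whether both acids were set against the same control RNA is not stated. Over all 20500 measured probes, limma called 0 probes (0%) for EPA minus DHA at an adjusted p of 0.05 over the 4 arrays. Unadjusted p lay under 0.05 for 218, where 1025 would be expected by chance. With the replicate number as a block, 0 were called and 359 had an unadjusted p under 0.05. Both counts lie below the expected number, so the 0 calls do not show that the acids act alike. The spread in these fits is that between the arrays of a swap, and whether it holds differences between cultures is not stated.

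The place of each gene among all 9653 genes was also taken. Counted from the lowest value, Grem1 was at rank 862 on EPA array 1 and 6 on EPA array 2. On DHA arrays 1 and 2 it was at rank 837 and 5. It was thus near the bottom of both arrays with Cy3-labelled supplemented RNA. Those arrays correlated at 0.65 across probes, so the ranks on them are not independent. On arrays 1 of EPA and DHA, 8.92% and 8.66% of the genes lay below it.

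Gpc3 was at rank 132 from the highest value on EPA array 1 and at rank 172 from the lowest on EPA array 2. On DHA arrays 1 and 2 it was at rank 905 and 3 from the lowest. Fmod was at rank 167 and 112 from the lowest on EPA arrays 1 and 2, and at 735 and 175 on DHA arrays 1 and 2. Between 1.15% and 7.60% of the genes lay below Fmod on the 4 arrays.

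DHA array 1 had a long tail of low values. Of its 1084 probes under -1, 1076 lay in the 66 leftmost of 215 grid columns inferred from feature numbers. None of the 3 genes has its probe there: Grem1 lies in column 107, Gpc3 in 189 and Fmod in 207. Among the 6096 genes with no probe in those columns, the ranks on DHA array 1 were 36 for Grem1, 46 for Gpc3 and 15 for Fmod. The ratios of the surrounding features were small on most arrays. In a window of 11 by 11 features around Grem1 the medians ran from -0.04 to 0.03 over the 4 arrays. Around Gpc3 they were -0.05 (array 1) and 0.02 (array 2) with EPA and -0.12 (array 1) and 0.05 (array 2) with DHA. Around Fmod they were -0.02 (array 1) and 0.15 (array 2) with EPA and 0.0034 (array 1) and 0.19 (array 2) with DHA. With that local median removed, Fmod stood at -0.55 (array 1) and -0.51 (array 2) with EPA and at -0.76 (array 1) and -0.49 (array 2) with DHA. Gpc3 on DHA array 1 then stood at -0.48, short of 1.5-fold, so Gpc3 was no longer called, with a DHA mean of -0.66, while Grem1 was still called with a mean of -0.70.

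**Figure D3:**
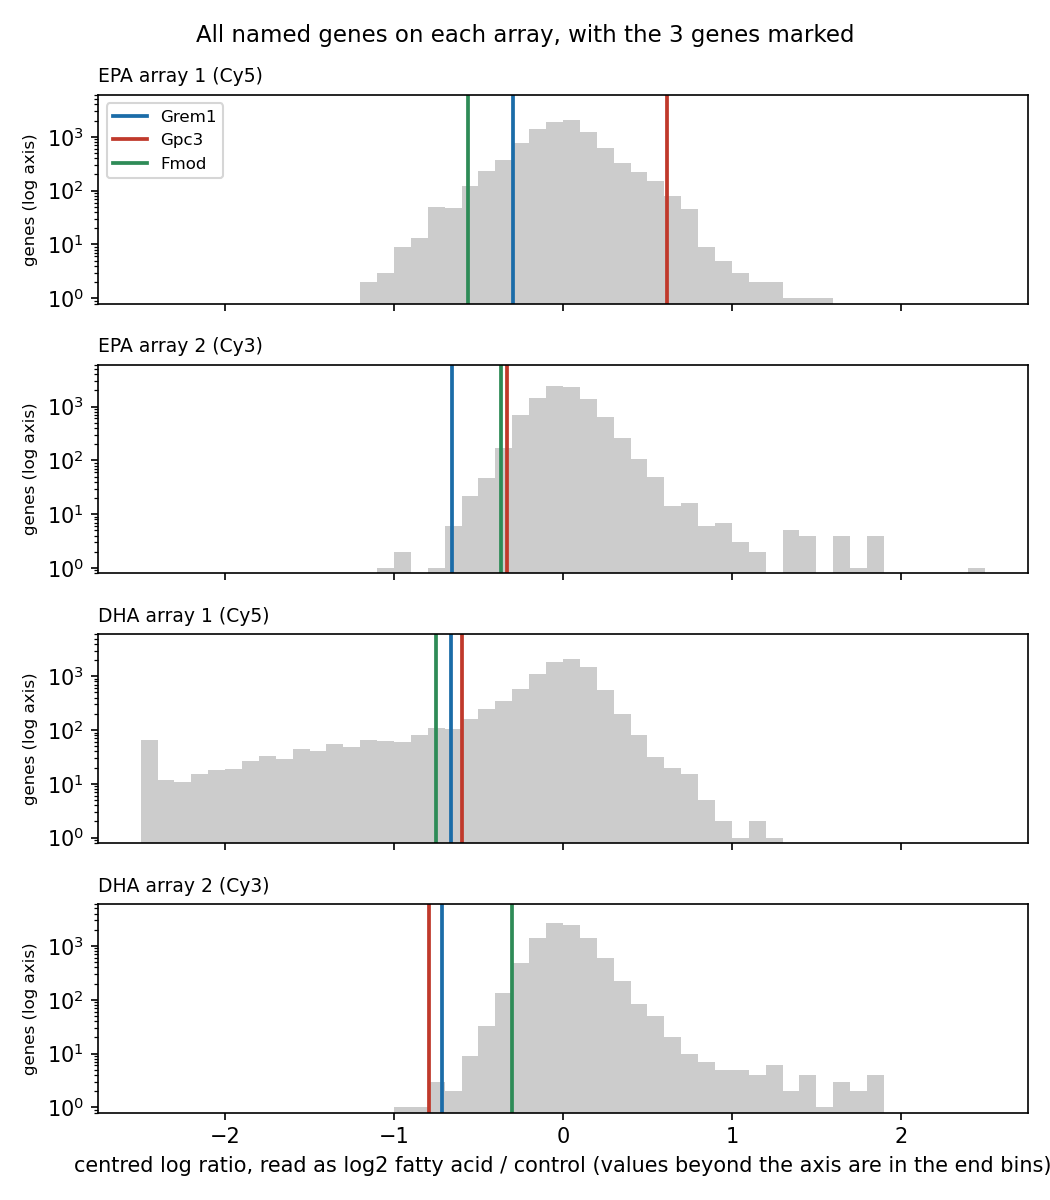
Number of named genes by centred log ratio on each array, read as log2 of fatty acid over control with a logarithmic count axis, and Grem1, Gpc3 and Fmod as coloured lines. Grem1 lies at the low edge of EPA array 2, and Grem1 and Gpc3 at that of DHA array 2, while the low tail of DHA array 1 runs far past all 3 lines.

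The genes with the most similar values were taken as the 5 at the smallest Euclidean distance over the 4 arrays. The 4 points of a profile may share control RNA, so closeness is a description. For Grem1 these were Dpep1 at a distance of 0.37, the chemokine gene Cxcl12 at 0.38, Chaf1b, a chromatin assembly factor, at 0.41, Gmnn, an inhibitor of replication licensing, at 0.43, and Mcm5, a subunit of the replicative helicase, at 0.46. Cxcl12 stood at -0.06 (array 1) and -0.58 (array 2) with EPA and at -0.40 (array 1) and -0.84 (array 2) with DHA. It was lower than Grem1 on DHA array 2 and nearer control on the other arrays.

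For Gpc3 the nearest gene was Igfbp3, a binding protein of insulin-like growth factors, at a distance of 0.37. Igfbp3 stood at 0.71 (array 1) and -0.20 (array 2) with EPA and at -0.28 (array 1) and -0.66 (array 2) with DHA. It shared the high value on EPA array 1 and the low values on the other 3 arrays. Next were Cyp2s1, a cytochrome P450, at 0.39, Sinhcaf, a SIN3-HDAC complex protein, at 0.49, Csf2, the gene of GM-CSF, at 0.51, and the kinase gene Syk at 0.52. These 4 have their probe in the leftmost columns, Igfbp3 does not.

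Fmod had closer neighbours than either of the others. Aard lay at a distance of 0.15, Sumo2, a small ubiquitin-like modifier, at 0.19, Klf9, a zinc finger factor, at 0.22, Tbc1d8b at 0.24 and Crip1, a LIM protein, at 0.25. Aard stood at -0.57 (array 1) and -0.25 (array 2) with EPA and at -0.66 (array 1) and -0.29 (array 2) with DHA. Gmnn, Sumo2 and Tbc1d8b also have their probe in the leftmost columns.

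**Figure D4:**
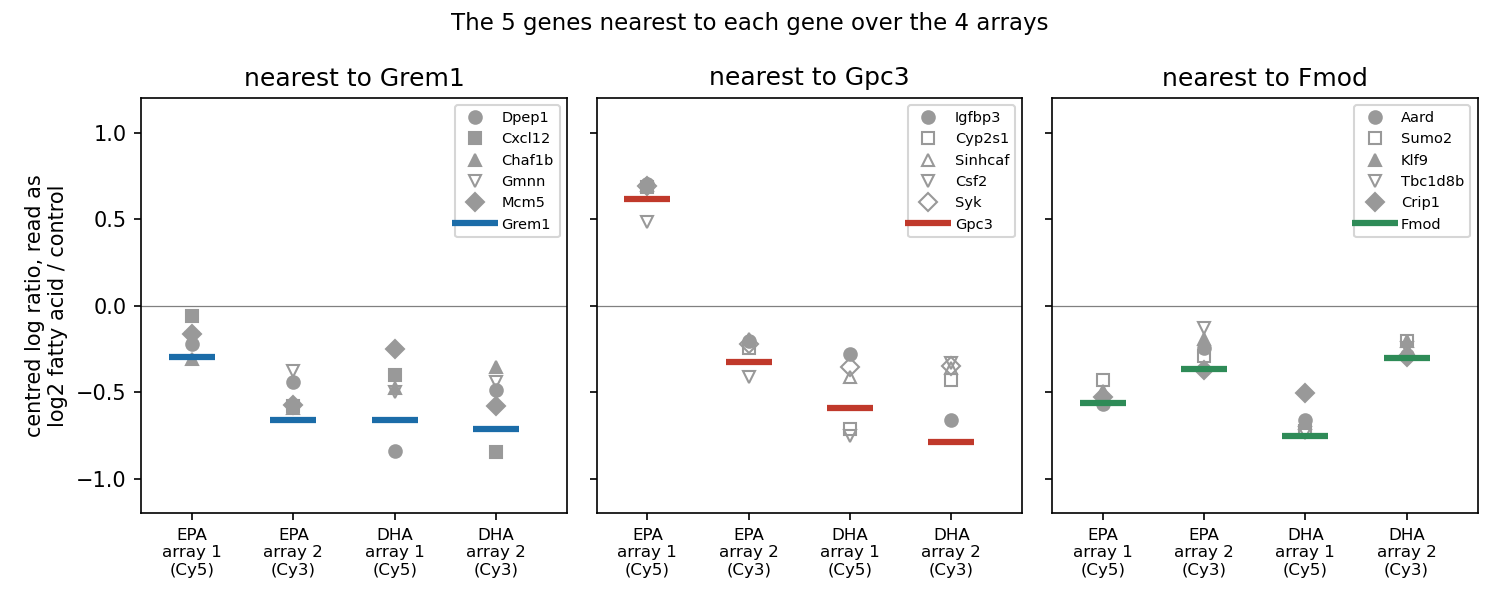
Centred log ratios, read as log2 of fatty acid over control, of Grem1, Gpc3 and Fmod (coloured bars) and of the 5 genes nearest to each (grey symbols, open where the probe lies in the leftmost columns). Neighbours of Gpc3 lie above 0 on EPA array 1 and below 0 on the other arrays, while those of Grem1 and Fmod lie below 0 on all 4.

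The pathways of the 3 genes were described with 10 lists of 238 genes, of which 169 had a probe. None of the 169 was called with EPA or DHA at 1.5-fold, against 0.0311% and 0% of all genes higher and lower with EPA and 0.0414% in each direction with DHA. At 1.3-fold 1 was higher with EPA, Sparc, and 0 were lower, against 0.176% and 0.0829% of all genes. With DHA 0 were called in either direction at 1.3-fold, against 0.145% of all genes higher and 0.238% lower. Read as log10, 10 would be higher and 5 lower with EPA, against 2.37% and 2.57% of all genes, and 3 higher and 10 lower with DHA, against 1.41% and 3.55%. A limma test of the 2 swap means against 0 called 0 of the 220 probes of these genes and 0 of all 20500 (0%) at an adjusted p of 0.05. Unadjusted p lay under 0.05 for 29 of the 220 and 909 of the 20500. With limma over the 4 arrays and the replicate number as a block, 0 were again called. Unadjusted p then lay under 0.05 for 41 of the 220 and 1717 of the 20500. That fit takes the arrays of a swap as units, although they may hold the same RNA. The lists were chosen with earlier results of these data known, so nothing is read from the unadjusted counts of either fit. For each list, medians are also given over the genes with no probe in the leftmost columns, where the medians over all genes were -0.02 with EPA and 0.03 with DHA. For EPA minus DHA, 0 of the 220 were called and 1 had an unadjusted p under 0.05.

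Of 8 measured BMP ligand genes, the partners of gremlin, 0 were called, with medians of -0.0069 with EPA and -0.05 with DHA, against medians of -0.0012 and 0.00021 over all genes. Over the 3 list genes outside the leftmost columns they were -0.13 with EPA and -0.05 with DHA. Bmp4 stood at -0.22 ± 0.05 with EPA and -0.22 ± 0.12 with DHA, and was below control on all 4 arrays. Bmp2 stood at -0.13 ± 0.02 with EPA and -0.05 ± 0.00081 with DHA. Bmp7 stood at 0.0012 ± 0.05 with EPA and -0.16 ± 0.08 with DHA, with its probe in the leftmost columns. Of these 3, Bmp2 and Bmp4 lay farther from control than their error with either acid.

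Of 9 other antagonists of BMPs and activins measured, 0 were called, and their medians were 0.10 with EPA and -0.08 with DHA. Over the 4 genes outside the leftmost columns they were 0.10 with EPA and -0.03 with DHA. Nog, encoding the BMP antagonist noggin, stood at -0.11 ± 0.06 with EPA and -0.08 ± 0.16 with DHA. Fstl1, encoding a follistatin-like glycoprotein, stood at 0.17 ± 0.0027 with EPA and 0.22 ± 0.19 with DHA. Fst, encoding the activin antagonist follistatin, stood at 0.16 ± 0.24 with EPA and -1.31 ± 1.10 with DHA. The low DHA mean of Fst comes from a value of -2.41 on DHA array 1, and both Fst and Fstl1 have their probe in the leftmost columns.

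Of 11 receptor genes for BMP, activin and TGF-beta, 0 were called, with medians of 0.12 with EPA and -0.05 with DHA. Over the 3 genes outside the leftmost columns they were 0.07 with EPA and 0.10 with DHA. Bmpr2, the type II BMP receptor, stood at 0.13 ± 0.06 with EPA and 0.12 ± 0.04 with DHA over 4 probes, 2 of them in the leftmost columns. Bmpr1a, a type I receptor, stood at -0.14 ± 0.24 with EPA and -0.0043 ± 0.0080 with DHA.

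Of 16 SMAD and BMP-induced genes, 0 were called, with medians of 0.02 with EPA and -0.04 with DHA. Over the 12 genes outside the leftmost columns they were 0.02 with EPA and -0.0088 with DHA. Id1, a BMP-induced inhibitor of differentiation, stood at -0.05 ± 0.13 with EPA and 0.0081 ± 0.09 with DHA. Id2, of the same family, stood at 0.07 ± 0.16 with EPA and -0.12 ± 0.15 with DHA. Both Id genes were within their ± error of control. Smad6, an inhibitory SMAD, stood at 0.03 (array 1) and 0.14 (array 2) with EPA and at -0.26 (array 1) and -0.12 (array 2) with DHA. Smad7, the other inhibitory SMAD, stood at 0.19 ± 0.22 with EPA and -0.04 ± 0.04 with DHA. Smad2, which carries TGF-beta signals, was below control on all 4 arrays, at -0.28 ± 0.06 with EPA and -0.20 ± 0.08 with DHA, with 1 of its 2 probes in the leftmost columns.

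Of 21 genes of glypicans, syndecans and heparan sulfate enzymes, 0 were called, with medians of 0.01 with EPA and -0.02 with DHA. Over the 14 genes outside the leftmost columns they were 0.04 with EPA and 0.04 with DHA. Gpc1, a glypican, stood at 0.38 ± 0.21 with EPA and 0.08 ± 0.04 with DHA, so with DHA it lay on the other side of control from Gpc3. Gpc4, another glypican, stood at -0.12 ± 0.16 with EPA and -0.35 ± 0.21 with DHA over 3 probes. Sulf2, a sulfatase that trims heparan sulfate, was above control on all 4 arrays, at 0.40 ± 0.15 with EPA and 0.46 ± 0.22 with DHA. The syndecan gene Sdc4 stood at 0.13 ± 0.30 with EPA and -0.25 ± 0.54 with DHA, and so was within its ± error.

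Glypican 3 modulates Hedgehog and Wnt signalling, and genes of the insulin-like growth factor (IGF) system were listed with those of these pathways. Of 34 genes of this list, 0 were called, with medians of 0.03 with EPA and -0.01 with DHA. Over the 19 genes outside the leftmost columns they were 0.03 with EPA and 0.02 with DHA. Igf2 stood at -0.25 ± 0.28 with EPA and -0.36 ± 0.34 with DHA. Its low values were on arrays 1, at -0.53 with EPA and -0.70 with DHA. Igf1, Igf1r and Wnt5a had swap means between -0.0030 and 0.06 with either acid. Gli1, a transcription factor induced by Hedgehog, stood at 0.07 ± 0.11 with EPA and 0.21 ± 0.19 with DHA. The list's lowest mean over the 4 arrays was that of Cd81, a tetraspanin bound by glypican 3, with -3.37 on DHA array 1 and its probe in the leftmost columns.

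Of 20 ligand and receptor genes of the FGF and VEGF families, 0 were called, with medians of 0.01 with EPA and 0.0044 with DHA. Over the 13 genes outside the leftmost columns they were -0.0033 with EPA and 0.0063 with DHA. Kdr, the VEGF receptor that gremlin 1 also binds, was above control on all 4 arrays, at 0.20 ± 0.04 with EPA and 0.19 ± 0.04 with DHA. Vegfa stood at 0.49 ± 0.24 with EPA and 0.01 ± 0.24 with DHA.

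Of 9 other small leucine-rich proteoglycan genes, the family of Fmod, 0 were called, with medians of -0.07 with EPA and -0.12 with DHA. Over the 6 genes outside the leftmost columns they were -0.06 with EPA and -0.0089 with DHA. Lum, encoding lumican, a close relative of fibromodulin that also binds collagen, was below control on all 4 arrays, at -0.36 ± 0.01 with EPA and -0.15 ± 0.05 with DHA. Ogn, encoding osteoglycin, was also below control on all 4, at -0.27 ± 0.22 with EPA and -0.24 ± 0.03 with DHA. Dcn, encoding decorin, stood at -0.29 ± 0.0038 with EPA and -0.33 ± 0.27 with DHA, below control on all 4, with its probe in the leftmost columns. None of these 3 was as low as Fmod in either swap mean. Bgn, encoding biglycan, changed sign between the arrays of each swap, at -0.77 (array 1) and 1.71 (array 2) with EPA and -0.43 (array 1) and 1.86 (array 2) with DHA. Its values on both arrays 1 are repeated for at least 20 probes, and so are those of Fn1 and Col1a2.

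Of 14 TGF-beta ligands, latency proteins and induced genes, 0 were called, with medians of 0.04 with EPA and -0.05 with DHA. Over the 10 genes outside the leftmost columns they were -0.0038 with EPA and -0.05 with DHA. Tgfb2 stood at 0.23 ± 0.27 with EPA and -0.15 ± 0.18 with DHA, and Tgfb3 at 0.20 ± 0.15 with EPA and -0.15 ± 0.37 with DHA. For Tgfb1 the values were 0.29 ± 0.30 with EPA and -0.05 ± 0.06 with DHA, with its probe in the leftmost columns.

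Of 27 genes of fibrillar collagens, their crosslinking enzymes and collagen-binding matrix, 0 were called at 1.5-fold, with medians of 0.15 with EPA and -0.06 with DHA. Over the 16 genes outside the leftmost columns they were -0.0036 with EPA and -0.06 with DHA. Sparc, a collagen-binding matricellular protein, stood at 0.44 (array 1) and 0.93 (array 2) with EPA and at -0.37 (array 1) and 0.39 (array 2) with DHA. Col3a1, a fibrillar collagen, stood at -0.08 ± 0.07 with EPA and -0.10 ± 0.06 with DHA. Lox, a collagen crosslinking enzyme, stood at -0.52 ± 0.48 with EPA and -0.08 ± 0.22 with DHA, its EPA mean resting on -1.01 on EPA array 1.

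**Figure D5:**
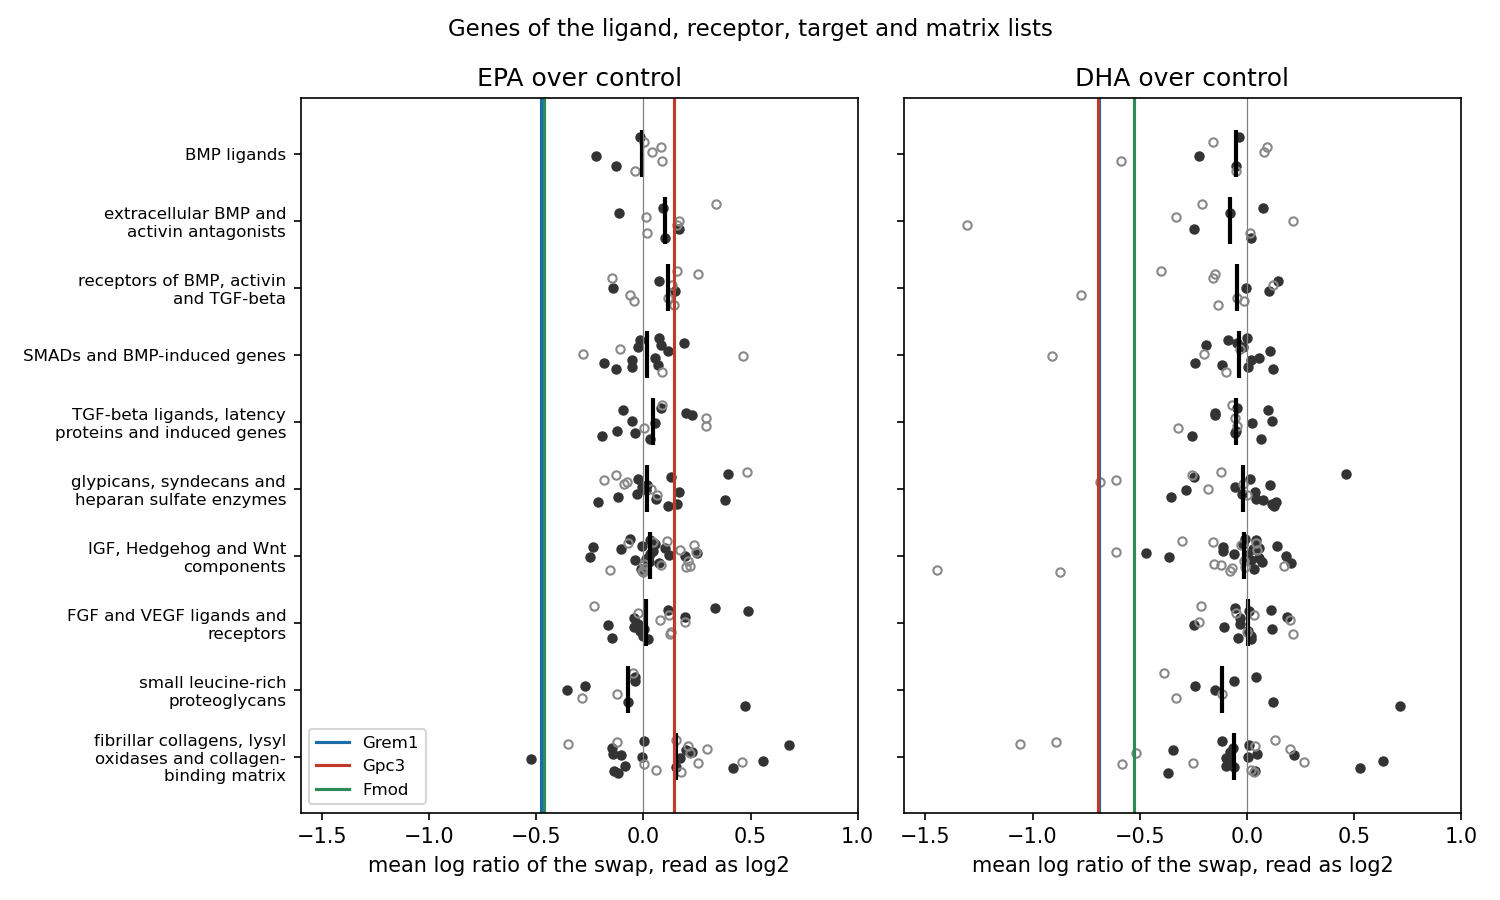
Swap means of the measured genes of the 10 lists for EPA (left) and DHA (right), read as log2 of fatty acid over control, open circles having a probe in the leftmost columns. Short black bars are list medians and coloured lines mark Grem1, Gpc3 and Fmod; with DHA the points beyond the Grem1 and Gpc3 lines are open circles.

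Markers of the cell types such cultures can hold were set beside the 3 genes. Of 12 measured fibroblast markers 0 were called. Over all genes the 1.5-fold rule called 0.0311% higher and 0% lower with EPA, and 0.0414% in each direction with DHA. At such shares nothing is read from a count of 0 in a list this small. Array medians of the markers with EPA were 0.0014 (array 1) and -0.15 (array 2). With DHA they were -0.07 (array 1) and -0.12 (array 2). Swap means of the fibroblast markers ran from -0.36 to 0.42 with EPA and from -0.50 to 0.53 with DHA. Both upper ends are those of Col1a2, which changed sign within each swap and has the repeated values on arrays 1. The lowest DHA mean is that of Pdgfrb, with its probe in the leftmost columns. Outside those columns the DHA means ran from -0.24 to 0.53. Tcf21, a transcription factor of cardiac fibroblasts, stood at -0.15 ± 0.08 with EPA and -0.24 ± 0.26 with DHA. Thy1, a fibroblast surface protein, stood at 0.02 ± 0.14 with EPA and 0.0012 ± 0.22 with DHA.

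The median of 6 epicardial and mesothelial markers was 0.03 with EPA and -0.03 with DHA, and that of 6 cardiomyocyte markers was -0.01 with EPA and 0.0021 with DHA. The median of 6 smooth muscle markers was 0.11 with EPA and -0.04 with DHA, and that of 8 endothelial markers was 0.01 with EPA and 0.05 with DHA. None of these 4 lists had a called gene, from which nothing is read at the shares over all genes given above. The median of 11 macrophage markers was -0.16 with EPA and 0.03 with DHA. In that list Mmp12, the macrophage elastase, was called lower with DHA, where the rule called 0.0414% of all genes lower. Mmp12 stood at -0.66 ± 0.19 with EPA and -0.84 ± 0.21 with DHA. Lyz2, the macrophage lysozyme, stood at -0.74 ± 0.45 with EPA and -0.77 ± 0.36 with DHA. Mmp12 and Lyz2 had the lowest means of that list with either acid and were named after their values were seen. The next lowest marker, Fcgr2b, stood at -0.35 with EPA and -0.24 with DHA. The highest means of the list were 0.17 with EPA and 0.08 with DHA. Without genes that have a probe in the leftmost columns, the list medians ran from -0.10 to 0.11 with EPA and from -0.04 to 0.08 with DHA over the 6 lists, with -0.05 and 0.0012 for fibroblast markers. The part of any of these cell types in the ratios of Grem1, Gpc3 and Fmod was not tested.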

How the data were processed

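Amplified RNA of supplemented and control cells, carrying opposite cyanine dyes, was compared directly on Agilent rat oligonucleotide arrays, per the labels. The authors deposited 1 log ratio per feature and array, read here as log2. How the spots were scanned, background-corrected and normalized, and which base and direction the ratios have, the labels do not state. The 22575 features held 20500 measured probes. Symbols came from an old platform annotation, updated by gene ID through a GRCr8 gene table (12720 probes found there). One symbol was given to 12750 probes, several to 5, left unnamed, and 7745 were unlisted. Probes of a gene were averaged.

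Each array was centred on its median. The 2 arrays of an acid were averaged as 1 RNA sample. A dye effect equal on both arrays cancels in that mean, unless the ratios are Cy5 over Cy3. The low tail of DHA array 1 does not cancel. Tests over all probes used limma 3.58.1 in R 4.3.3 (lmFit, eBayes, Benjamini-Hochberg). The fits were also run on simulated arrays with independent noise, which lack the correlations and the low tail of these arrays. Python 3.11.15 did the rest. The number of arrays limits the precision. Grid columns were inferred from feature numbers. Replicate numbers coincide with dye orientation. Deviations from the group means of same-numbered arrays correlated at 0.31 across probes, and at 0.64 outside the leftmost columns.

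The 3 genes and the lists were chosen with earlier results of these data known. Genes were named from the 3, a fixed set of pathway genes, list members at 1.3-fold on both arrays of a swap, each list's highest and lowest mean, and the 5 nearest genes. Not all of that set are given above. Left out were, among others, Thbs2, Acvrl1, Sdc1, Sdc2, Bmp3 and Tgfbr3. Their DHA means ran from -1.06 to -0.40, and each has a probe in the leftmost columns. Also left out were Bmp6, Smad3 and Fzd1, with DHA means from 0.10 to 0.17. Cell type markers named in the text were chosen after their values were seen, as was Nr4a3. Alternatives were other centring, local median removal, equal spread, quantile normalization, Cy5 over Cy3, log10, thresholds, probes, blocks and each array left out.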

Additional observations from a re-analysis of the deposited data

Results flagged for a closer look

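Smad6, an inhibitory SMAD induced by BMPs, drew notice because the acids lay on opposite sides of control on every array. How many of all genes have this pattern was not counted, so nothing is read from it, and EPA array 1 lay close to control. It stood at 0.03 (array 1) and 0.14 (array 2) with EPA and at -0.26 (array 1) and -0.12 (array 2) with DHA, an EPA minus DHA difference of 0.27. Its probe lies outside the leftmost columns. The limma fit of EPA minus DHA over the 4 arrays called 0 of 20500 probes, so Smad6 was not called. In that fit 218 probes had an unadjusted p under 0.05, where 1025 would be expected by chance.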

How the results depend on the processing

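The values of Grem1, Gpc3 and Fmod moved by less than the spread between the arrays of a swap under 28 of 42 alternatives other than leaving out an array. That spread is the standard deviation of the 2 arrays. For Gpc3 with EPA it was 0.67, so wide that every such alternative fell within it, a change of sign included. Quantile normalization gave swap means of -0.83 (EPA) and -0.90 (DHA) for Grem1, -0.92 (DHA) for Gpc3 and -0.79 (EPA) for Fmod, and turned the EPA mean of Gpc3 to -0.12. It called Fmod lower with EPA and ended both DHA calls. Equal spread gave -0.73 (DHA) for Grem1 and -0.75 (DHA) for Gpc3, which was then not called. Read as Cy5 over Cy3, the DHA means turned to 0.026 for Grem1 and 0.10 for Gpc3, and the EPA means were 0.18 for Grem1, 0.47 for Gpc3 and -0.10 for Fmod. If the values were log10, the log2 means would be -1.59 (EPA) and -2.28 (DHA) for Grem1, -2.30 (DHA) for Gpc3, and -1.54 (EPA) and -1.75 (DHA) for Fmod, and Grem1 with EPA and Fmod with both acids would be called too. With a local median removed Gpc3 was not called with DHA. With 1 array per acid, values ran from -0.66 to -0.30 (EPA) and -0.71 to -0.66 (DHA) for Grem1, -0.33 to 0.62 and -0.79 to -0.59 for Gpc3, and -0.56 to -0.37 and -0.75 to -0.30 for Fmod. The cause of these changes was not tested.

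The counts of genes at 1.5-fold (EPA 3 higher and 0 lower, DHA 4 higher and 4 lower) were 0 and 27 with EPA and 0 higher with DHA as Cy5 over Cy3. At 1.3-fold they were 17 and 8 with EPA and 14 and 23 with DHA. Read as log10, a choice added after seeing the data, they were 229 and 248 with EPA and 136 and 343 with DHA. Counted by probe, 7 were higher with EPA and 8 with DHA. Quantile normalization gave 19 lower with EPA and 10 with DHA, equal spread 1 lower with EPA, and local median removal 2 higher with DHA. On 1 array alone, 72 to 168 were higher and 11 to 139 lower with EPA, and 49 to 76 higher and 7 to 919 lower with DHA.

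Limma on the swap means called 2 of 14222 probes without the leftmost columns and 0 under each other alternative. Limma for EPA minus DHA called 1048 probes without DHA array 2, which leaves DHA array 1 alone for DHA, and 0 under each other alternative. With the replicate block 0 probes were called in either fit. Leaving out 1 array gave 0 for the joint fit and 0 to 1048 for EPA minus DHA. Signal over background was not analysed here.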
